A study of Mus musculus with 64 samples.

Results

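The 16 pancreas arrays of F2 male mice were ranked by Ins2, the insulin 2 gene, through its only probe set on the array (1422446_x_at), and the 5 arrays highest in Ins2 (Ins2-rich) were set against the 5 lowest (Ins2-poor). These 10 arrays are 10 of the 16 pancreas arrays and of 64 arrays in all, and the 6 arrays between them (middle) were kept apart. Members were thus chosen by their measured Ins2 level. The question was which other transcripts followed Ins2. All mice came from the F2 cross of TALLYHO/JngJ and C57BL/6J mice, were 24 weeks old, ate standard rodent chow and were not overtly diabetic. By plasma triglyceride, 8 of the mice lay at the high end of the cross and 8 at the low end. Liver, skeletal muscle (soleus with gastrocnemius) and adipose tissue (inguinal, epididymal, retroperitoneal, perirenal and subscapular pads pooled) of the same mice were also hybridised. The Ins2-rich arrays came from 3 high triglyceride mice (replicates 6, 7 and 8) and 2 low triglyceride mice (replicates 6 and 7). The Ins2-poor arrays came from 1 high triglyceride mouse (replicate 1) and 4 low triglyceride mice (replicates 1, 2, 4 and 5), and the middle arrays from 4 high and 2 low triglyceride mice. Each F2 mouse carries its own mixture of the parental genomes, so mice of a set are not genetic replicates, and p-values measure the spread between mice.

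Islets of Langerhans are small clusters of endocrine cells scattered through the acinar tissue. Their beta cells store insulin with islet amyloid polypeptide in dense-core granules, whose cargo and processing enzymes (chromogranins, secretogranins, carboxypeptidase E) are shared with other endocrine cells and with neurons. Alpha cells make glucagon and delta cells somatostatin, while acinar cells make the digestive enzymes that dominate pancreas RNA. In an extract of a whole organ, fewer cells of a type and less RNA per cell cannot be told apart.

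Values are log2 levels after gcRMA, and the lowest value in pancreas was 2.35, where many probe sets lay. Others held a nearly constant higher value on all 16 arrays, such as Sox10 (5.88 to 5.91) and Tff3 (4.68 to 4.82). A level above 2.35, or above 4, is therefore no proof of detection. By the rule that formed the sets, Ins2 was 15.142, 14.943, 14.796, 14.753 and 14.535 on the Ins2-rich arrays, and 13.731, 13.691, 13.677, 13.59 and 13.361 on the Ins2-poor arrays. The middle arrays lay at 13.985 to 14.535. The means were 14.83 ± 0.23 in the Ins2-rich and 13.61 ± 0.15 in the Ins2-poor set (SD, n = 5 each), a difference of 1.22 or 2.34-fold, and all 16 arrays spanned 3.44-fold. These values describe the choice and were not tested. The upper boundary had almost no gap. The last Ins2-rich array (high triglyceride replicate 8) and the first middle array (high triglyceride replicate 5) differed by 0.00035, so that which of them is called rich is arbitrary. At the lower boundary the gap was 0.254. Ins2 itself was detected only in pancreas, with highest values of 2.30 in liver, 2.61 in muscle and 2.34 in adipose tissue. The annotation used assigns no probe set to insulin 1 (Ins1), so Ins1 was not analysed by name. A probe set without a gene name could still detect it, and an x_at probe set can also hybridise related transcripts.

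Iapp, which encodes islet amyloid polypeptide, was 15.27, 14.49, 14.66, 14.23 and 14.29 on the Ins2-rich arrays, in falling order of Ins2, against 13.24, 12.77, 12.97, 12.89 and 12.59 on the Ins2-poor arrays. The sets did not overlap, and the middle arrays had a lowest value of 13.47, a median of 13.63 and a highest of 14.00. The other Iapp probe sets gave larger and smaller differences between the sets. They were 2.34 for 1423510_at, 2.04 for 1437323_a_at and 1.33 for 1456004_x_at, beside 1.69 (3.24-fold) for 1423509_a_at. Pearson's r of Ins2 and Iapp over the 16 arrays was 0.957. Ranking by Iapp selected the same arrays for both sets, which is the same grouping and no separate support for it.

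**Figure D1:**
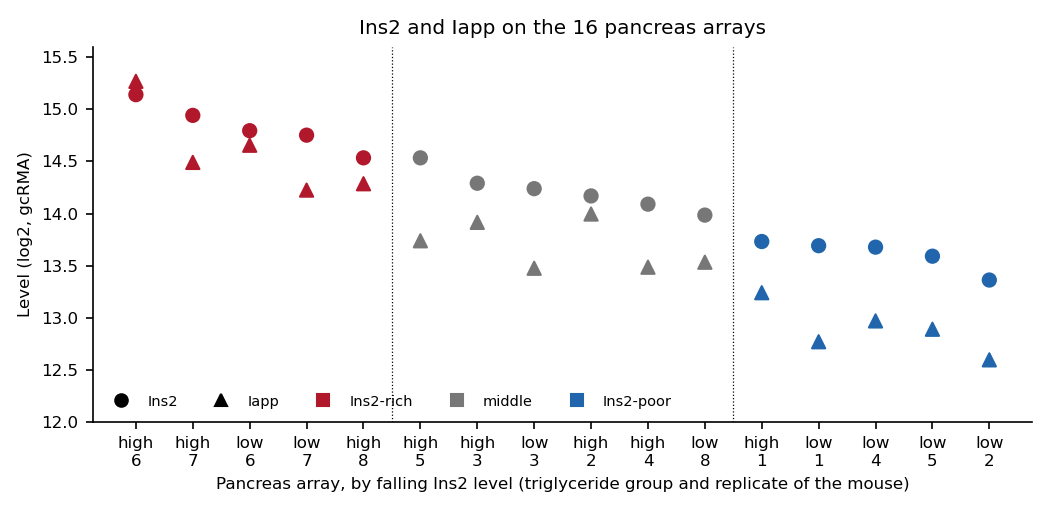
Log2 levels of Ins2 (circles) and Iapp (triangles) on each of the 16 pancreas arrays in falling order of Ins2, with the Ins2-rich arrays in red, the middle arrays in grey and the Ins2-poor arrays in blue, named by triglyceride group and replicate. Ins2 falls in small steps with almost no gap between ranks 5 and 6, and the Iapp values of the 5 Ins2-rich arrays (14.23 to 15.27) all lie above those of the 5 Ins2-poor arrays (12.59 to 13.24).

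Other properties of the mice and arrays were set beside the sets. Triglyceride groups were split 3 high and 2 low in the Ins2-rich set and 1 high and 4 low in the Ins2-poor set (Fisher's exact test, two-sided, p = 0.524). Ins2 averaged 14.43 ± 0.46 in high and 14.01 ± 0.54 in low triglyceride mice (SD, n = 8 each), a difference of 0.42 that did not pass an exact permutation test (two-sided, p = 0.117). The number that the labels give each mouse was 516 to 639 in the Ins2-rich and 258 to 434 in the Ins2-poor set, without overlap. Over the 16 mice, Ins2 and mouse number had a Pearson r of 0.682 (permutation test, two-sided, p = 0.00465) and a Spearman rho of 0.653 (permutation p = 0.0075), with a Benjamini-Hochberg adjusted p of 0.0075 for both. Without the 2 mice farthest from the median number, r was 0.622 and rho 0.596 (permutation p = 0.0204 and 0.0284). Within high triglyceride mice r was 0.772 and within low triglyceride mice 0.723. What the number stands for is not stated, and set and mouse number cannot be told apart in the comparison of 5 with 5. The control probe sets for the 3′ and 5′ ends of Gapdh differed by 0.42 to 0.60 on the Ins2-rich and 0.57 to 1.55 on the Ins2-poor arrays, and those of Actb by 1.56 to 2.05 on the Ins2-rich and 1.17 to 2.24 on the Ins2-poor arrays. The part of RNA quality in the results was not tested. Each pancreas array correlated with the others at a mean r of 0.988 to 0.993, so none stood apart.

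Of 45036 probe sets other than Ins2, limma called none between the Ins2-rich and Ins2-poor pancreas arrays at a Benjamini-Hochberg adjusted p under 0.05 (0%). At an unadjusted p under 0.05 there were 721. On 74 probe sets every Ins2-rich array lay above every Ins2-poor array (0.164% of those tested), and on 8 every one lay below (0.0178%). In a fit of the Ins2 level as a slope over all 16 arrays, which uses the middle arrays too, 10 probe sets passed (0.0222%), all with a positive slope. They were the 4 Iapp probe sets, Scg2, Chga, Resp18, G6pc2, Cpe and a probe set with no gene in the annotation used (1422447_at). Each of the named genes belongs to the endocrine lists. With mouse number as a covariate in the slope 7 of the 10 passed, while Chga, Cpe and Resp18 did not (limma adjusted p = 0.792, 0.792 and 0.0628). Probe set 1422447_at was 14.90, 14.64, 14.66, 14.35 and 14.31 on the Ins2-rich arrays, against 13.23, 12.91, 12.51, 13.02 and 12.69 on the Ins2-poor arrays. It had the smallest p of the slopes (1.36 log2 per log2 of Ins2, SE 0.08, limma adjusted p = 4.14e-06). Its number directly follows that of the Ins2 probe set (1422446_x_at). Whether it detects insulin transcripts, in which case its slope would set insulin against itself, was not tested.

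Scg2, Chga, Cpe and Resp18 are genes of secretory granules. Secretogranin II (Scg2), a granule protein and peptide precursor, was 11.02, 9.53, 9.72, 7.81 and 8.55 on the Ins2-rich arrays, against 7.30, 6.89, 7.40, 6.60 and 6.60 on the Ins2-poor arrays. It rose with Ins2 at a slope of 2.07 (SE 0.25, limma adjusted p = 0.00554), and the sets differed by 2.37 (SE 0.56, 5.16-fold). Chromogranin A (Chga), which takes part in forming dense-core granules, was 7.75, 6.53, 6.54, 5.97 and 5.43 on the Ins2-rich arrays, against 4.61, 4.44, 3.84, 4.29 and 3.60 on the Ins2-poor arrays. Its slope was 1.96 (SE 0.28, limma adjusted p = 0.0274). In both genes the array richest in Ins2 was the highest of all 16 and the sets did not overlap.

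Carboxypeptidase E (Cpe), which trims basic residues off prohormones, was 10.08, 9.03, 9.37, 8.75 and 8.90 on the Ins2-rich arrays, against 7.49, 7.26, 8.33, 7.50 and 6.59 on the Ins2-poor arrays. Resp18, a granule protein of endocrine cells, was 6.28, 5.38, 5.46, 4.35 and 3.99 on the Ins2-rich arrays, against 3.78, 3.44, 3.78, 2.37 and 2.84 on the Ins2-poor arrays. Their slopes were 1.49 (SE 0.22, limma adjusted p = 0.0362) for Cpe and 1.62 (SE 0.23, limma adjusted p = 0.0274) for Resp18. The sets were again apart for both genes, although the lowest Ins2-rich value of Resp18 (3.99) was close to the highest Ins2-poor value (3.78).

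G6pc2 encodes the islet-specific catalytic subunit of glucose-6-phosphatase, which opposes glucokinase in beta cells. It was 8.40, 7.45, 7.50, 6.04 and 6.74 on the Ins2-rich arrays, against 5.64, 4.94, 4.53, 4.58 and 4.67 on the Ins2-poor arrays. It rose with Ins2 at a slope of 2.01 (SE 0.29, limma adjusted p = 0.0322), and the sets differed by 2.35 (SE 0.44). One middle array, of high triglyceride replicate 2, reached 7.26, above 2 of the Ins2-rich arrays.

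The upstream sequences of the genes that rose with Ins2 are shown because these genes moved together, in 250 bases that end at the start of transcription (RefSeq, GRCm38.p6). Of the 6 named genes, 5 are in the sequence table. Capitals mark TGACGT (the core of the cAMP response element), TAAT (the core of homeodomain sites) and CATCTG (an E-box) on either strand, and neighbouring or overlapping matches run together.
Iapp (chr6:142298175-142298424, plus strand): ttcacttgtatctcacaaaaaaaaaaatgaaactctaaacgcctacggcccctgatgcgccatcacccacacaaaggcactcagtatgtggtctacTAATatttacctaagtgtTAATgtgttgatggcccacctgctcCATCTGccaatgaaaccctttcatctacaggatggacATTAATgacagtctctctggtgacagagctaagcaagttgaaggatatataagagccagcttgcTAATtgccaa
Scg2 (chr1:79440027-79440276, minus strand): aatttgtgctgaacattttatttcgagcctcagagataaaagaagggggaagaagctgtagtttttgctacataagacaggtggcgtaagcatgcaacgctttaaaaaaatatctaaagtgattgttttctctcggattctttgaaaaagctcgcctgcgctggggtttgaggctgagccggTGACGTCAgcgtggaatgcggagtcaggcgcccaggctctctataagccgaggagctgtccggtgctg
Chga (chr12:102554691-102554940, plus strand): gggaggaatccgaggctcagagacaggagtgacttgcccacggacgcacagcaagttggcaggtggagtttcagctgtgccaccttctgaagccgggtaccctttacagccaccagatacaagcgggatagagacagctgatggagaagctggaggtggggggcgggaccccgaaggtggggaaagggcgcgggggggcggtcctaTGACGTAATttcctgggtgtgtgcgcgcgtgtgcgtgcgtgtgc
Resp18 (chr1:75278416-75278665, minus strand): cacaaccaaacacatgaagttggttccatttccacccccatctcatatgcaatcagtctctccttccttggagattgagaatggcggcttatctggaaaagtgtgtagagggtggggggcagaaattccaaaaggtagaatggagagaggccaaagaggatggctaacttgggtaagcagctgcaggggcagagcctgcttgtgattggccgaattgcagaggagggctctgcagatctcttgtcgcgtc
G6pc2 (chr2:69210823-69211072, plus strand): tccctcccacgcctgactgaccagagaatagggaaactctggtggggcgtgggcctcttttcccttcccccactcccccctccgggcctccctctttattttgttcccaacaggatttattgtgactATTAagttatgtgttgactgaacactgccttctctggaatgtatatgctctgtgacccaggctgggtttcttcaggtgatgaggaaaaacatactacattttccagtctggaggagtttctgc
TGACGT was found upstream of Scg2, 68 bases before the start and with a second match on the other strand 66 bases before it, and of Chga, 44 bases before it, against 6.47% of 32851 upstream windows of the same length. TAAT was found upstream of 3 of the 5 genes, against 54.9% of windows, with 5 matches in Iapp alone. CATCTG was found in Iapp alone, 111 bases before the start, against 14.4% of windows. These matches describe the letters of the windows, and binding was not measured.

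Of 16 genes of neuroendocrine granules and prohormone processing, 15 had a probe set, and 8 had an unadjusted p under 0.05 in the comparison of 5 with 5, all higher in the Ins2-rich set, where 1.8% of 18192 genes were higher and 0.495% lower at that level. Most genes lie near the lowest value. Of the 6409 genes with a mean of 4 or more, 297 were higher at that level and 35 were higher without overlap of the sets. In the list, 6 of the 15 had a mean under 4. The median difference of the 15 was 0.56, against 0.00 over all genes and 0.08 over the 6409. Of the 15, 7 had all Ins2-rich arrays above all Ins2-poor arrays, beside 0.22% of all genes. Beside the genes above these were Chgb (chromogranin B, 1.17, SE 0.35), Scg3 (secretogranin III, 1.00, SE 0.31) and Scg5 (the chaperone 7B2 of prohormone convertase 2, 1.90, SE 0.59). The eighth was Ptprn2 (a tyrosine phosphatase-like granule membrane protein, 0.56, SE 0.22), whose sets overlapped. Scg5 was 7.55, 7.17, 5.57, 6.06 and 5.01 on the Ins2-rich arrays, against 5.00, 3.25, 4.81, 3.78 and 5.00 on the Ins2-poor arrays, so that its sets touched. The remaining 7 included Pcsk1, the convertase 1 gene, and Vgf, a neuropeptide precursor. Pcsk1 was 4.04 on most arrays, and its difference of -0.16 came mainly from a value of 4.96 on an Ins2-poor array. Vgf was at the lowest value on every array. The summed linear level of the list was 2079 to 4726 on the Ins2-rich and 928 to 1558 on the Ins2-poor arrays. None of the 15 passed the adjusted threshold, and the limma adjusted p of these 8 genes was 0.793.

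Genes of beta cell identity and glucose sensing were mostly too low to measure in whole pancreas. Of 20, 16 had a probe set and 11 of these had a mean under 4. G6pc2 and Cltrn (collectrin, formerly Tmem27, a beta cell membrane protein) were the 2 with an unadjusted p under 0.05, both higher. Over all genes, 1.8% were higher at that level, as were 297 of the 6409 genes with a mean of 4 or more. Cltrn was 7.98, 6.65, 6.49, 5.81 and 6.03 on the Ins2-rich arrays, against 4.50, 4.90, 5.33, 5.56 and 4.50 on the Ins2-poor arrays, without overlap. The median of the list was 0.02. Slc2a2 (the glucose transporter GLUT2) did not exceed 2.78 and Slc30a8 (the zinc transporter of the granule) did not exceed 3.32 on any Ins2-rich array. The transcription factors Pdx1, Nkx6-1, Neurod1 and Isl1 were at 3.79 or less on every array, and the list of 13 endocrine transcription factors had a median of 0.00 with no member at an unadjusted p under 0.05.

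Hormones of the other islet cells did not separate the sets. Gcg, the glucagon gene of alpha cells, was 12.09, 11.02, 11.54, 11.81 and 11.12 on the Ins2-rich arrays, against 11.69, 10.15, 11.42, 10.50 and 11.18 on the Ins2-poor arrays. The difference of 0.53 (SE 0.35, limma adjusted p = 0.793) lay within the spread of the arrays. Sst, the somatostatin gene of delta cells, was 6.97, 6.59, 6.26, 6.53 and 6.89 on the Ins2-rich arrays, against 7.11, 5.56, 6.49, 6.14 and 5.87 on the Ins2-poor arrays, and its highest value was on an Ins2-poor array. Its difference was 0.42 (SE 0.29, limma adjusted p = 0.793). Ppy, the pancreatic polypeptide gene, stayed at the lowest value on all 10 arrays. Whether Gcg and Sst differed from Ins2 in this respect was not tested. None of the 9 alpha and delta cell genes with a probe set had an unadjusted p under 0.05 (median 0.01). Of these, 6 had a mean under 4, where a difference could hardly appear, so the list says little about these cells.

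Acinar genes were near the top of the scale on every array, where the highest value of any probe set was 17.51. Saturation was not tested, and small differences at this level do not show that acinar RNA was unchanged. The elastase gene Cela1 was 15.96, 15.92, 15.83, 15.89 and 15.97 on the Ins2-rich arrays, against 15.90, 15.82, 15.94, 15.88 and 15.75 on the Ins2-poor arrays. Trypsin 2 (Prss2) and carboxypeptidase A1 (Cpa1) differed by 0.03 (SE 0.04) and 0.02 (SE 0.02). None of the 15 measured acinar enzymes had an unadjusted p under 0.05, with a median of 0.04, and their summed level was 1091409 to 1170274 on the Ins2-rich and 1044341 to 1108782 on the Ins2-poor arrays. Ctrc (chymotrypsin C) had separate high and low values within both sets, at 15.22, 12.39, 15.19, 12.96 and 15.17 on the Ins2-rich and 12.57, 12.51, 15.03, 13.19 and 14.95 on the Ins2-poor arrays. Several Reg genes, which encode secretory proteins of acinar cells, varied widely within the sets, while Reg1 stayed between 15.71 and 16.01 and Reg4 at 3.38 on these 10 arrays. Reg3g (a lectin with antibacterial activity) was 6.79, 10.09, 6.28, 6.11 and 3.43 on the Ins2-rich, against 6.00, 5.16, 5.73, 4.16 and 5.41 on the Ins2-poor arrays, and 0 of the 7 Reg genes had an unadjusted p under 0.05.

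**Figure D2:**
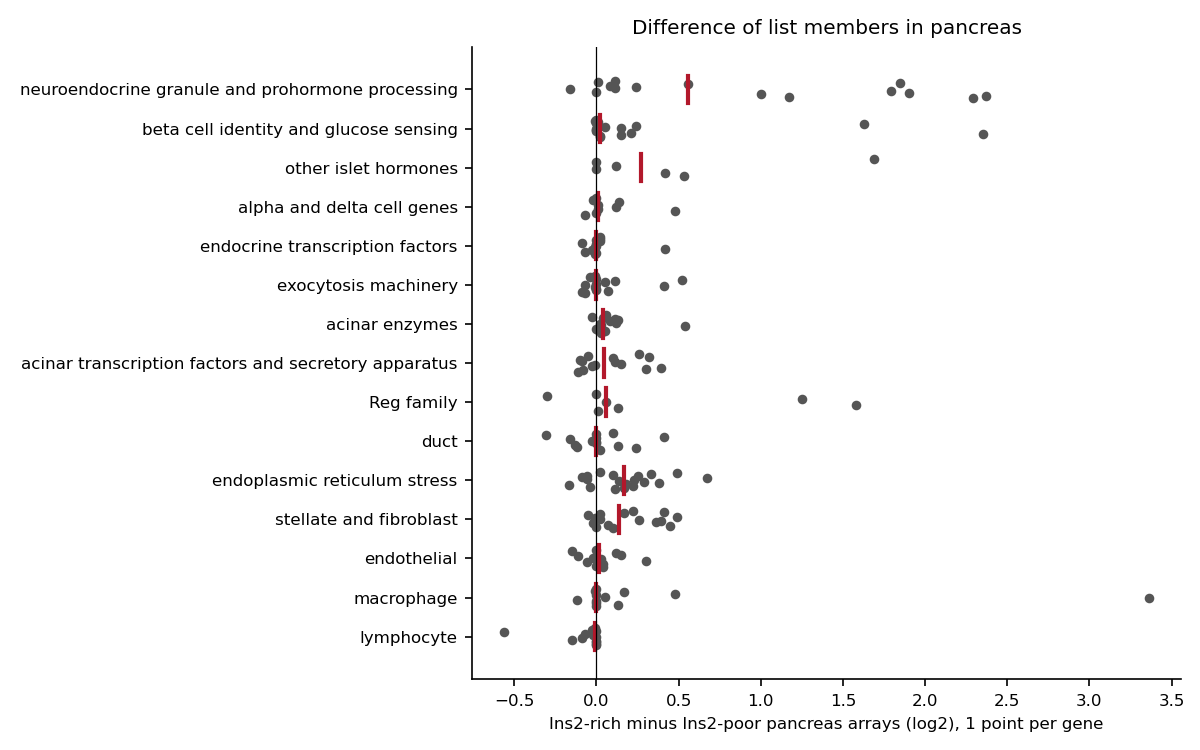
Difference of each measured list member between Ins2-rich and Ins2-poor pancreas arrays (log2, 1 point per gene), by list, with the list median as a red bar. Granule genes reach 2.37 with a median of 0.56, while acinar enzymes, near the top of the scale, have a median of 0.04 and the point at 3.36 in the macrophage list is C1qa.

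Markers of other cells in the pancreas were given the same reading. Of 14 duct genes Krt7 (0.24) and Anxa4 (0.41) had an unadjusted p under 0.05, and of 16 stellate and fibroblast genes Pdgfra (0.26) had one. Over all genes, 1.8% were higher at that level, as were 297 of the 6409 genes with a mean of 4 or more. Krt7 (2.64 to 3.15 on these arrays) and Pdgfra (3.27 to 3.96) were both under 4, where small differences are hard to measure. None of the 12 endothelial, 12 macrophage, 13 lymphocyte or 10 adipocyte genes had an unadjusted p under 0.05. However, 7 of the endothelial, 7 of the macrophage, 11 of the lymphocyte and 7 of the adipocyte genes had a mean under 4. A difference could hardly appear in those, so the lists do not show that these cells were unchanged. Cd68 of macrophages was at the lowest value of 2.35 on all arrays, and the summed level of the macrophage list was 293 to 2115 on the Ins2-rich and 273 to 1094 on the Ins2-poor arrays. C1qa (a complement subunit made by macrophages) set that range, at 9.92, 9.91, 10.78, 3.90 and 9.67 on the Ins2-rich and 2.73, 2.75, 9.47, 2.69 and 9.76 on the Ins2-poor arrays, a difference of 3.36 with an SE of 2.06 (limma adjusted p = 0.793). Its partner C1qb differed by 0.05 (SE 0.16). Of 19 genes of endoplasmic reticulum stress none had an unadjusted p under 0.05 (median 0.17), where genes with a mean of 4 or more had a median of 0.08. Of 8 housekeeping genes none had an unadjusted p under 0.05. Their median was 0.18, and their differences ran from -0.21 to the 1.06 (SE 0.60) of Actb, whose sets overlapped.

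Over all genes, the 10 with the lowest p that were higher in the Ins2-rich set were Iapp, Dnajc8, Chga, G6pc2, Cpe, Fxyd6, Ikzf2, Sec22b, Mrpl39 and Use1. Dnajc8, a chaperone cofactor linked to splicing, was 7.31, 7.29, 7.16, 7.16 and 7.30 on the Ins2-rich arrays, against 6.94, 6.90, 6.78, 7.00 and 6.90 on the Ins2-poor arrays, a small step of 0.34 (SE 0.05) that did not overlap. Fxyd6, a regulator of the sodium pump, differed by 0.51 (SE 0.11). Sec22b (0.33) and Use1 (0.34), both SNARE proteins of traffic between endoplasmic reticulum and Golgi, showed steps of like size. The 10 lower genes of lowest p were led by Tars2 (mitochondrial threonyl-tRNA synthetase, -0.26, SE 0.05), and Tars2 alone among them had sets that did not overlap. The largest of those 10 was Snrk, a kinase of the AMPK family, at -0.81 (SE 0.23). All of these had adjusted p-values of 0.79 or 0.793.

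By likeness to Ins2, measured as Pearson's r over 16 pancreas arrays that share their chip type and organ, the 10 leading genes were Iapp (0.957), Scg2 (0.91), Chga (0.883), Resp18 (0.881), G6pc2 (0.876), Cpe (0.872), Scg3 (0.84), Flrt2 (0.819), Scg5 (0.777) and Cstb (0.777). Flrt2 (a leucine-rich repeat transmembrane protein) and Cstb (cystatin B, an inhibitor of cathepsins) are in none of the endocrine lists. At the other end were Arf2 (-0.768), Lce1h (-0.746), Klk1b11 (-0.744), Frmd5 (-0.711), Igha (-0.709), Hsph1 (-0.697), Gpatch2 (-0.696), Myo7b (-0.693), Trim61 (-0.684) and Pih1d1 (-0.683). Klk1b11, a glandular kallikrein, was 7.70, 8.43, 8.51, 8.54 and 9.11 on the Ins2-rich arrays, against 9.39, 8.85, 9.15, 10.20 and 9.44 on the Ins2-poor arrays, with overlap. These coefficients are a description over arrays that include those of both sets.

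The 6 middle arrays were not used to form the contrast. On 74 probe sets all Ins2-rich arrays lay above the Ins2-poor arrays, and the middle mean lay between the 2 sets on 64 of them (86.5%). The share of all probe sets was 23.4%, and most of those are near the lowest value. The 74 were picked for a gap between the sets, which by itself makes a mean between them likely. The 23.4% is therefore no matched standard. Within the middle arrays the slope on Ins2 called no probe set (limma, 2331 at an unadjusted p under 0.05). The slope had the sign of the contrast on 36 of the 74 probe sets (48.6%), beside 38.2% of all. However, 11406 of the deposited probe sets lay within 0.01 of the lowest value on every pancreas array, where a sign means little. Neither 48.6% nor the granule share below can therefore be read as an excess over 38.2%. Of the 15 granule genes, 8 (53.3%) had a middle mean between the sets and 10 (66.7%) had a middle slope of the contrast's sign. The slope of Scg2 was 2.49 (SE 0.51) and of Scg3 1.01 (SE 0.25), while that of Iapp was 0.42 (SE 0.54). These arrays span only part of the Ins2 range, and their slopes are correspondingly imprecise.

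In the liver of the same mice, limma called 0 of 45036 probe sets between mice of the Ins2-rich and Ins2-poor pancreas (0%, 1570 at an unadjusted p under 0.05). The liver array of low triglyceride replicate 7, of an Ins2-rich mouse, stood apart with a mean r of 0.831 with the other liver arrays, against 0.978 or more for the rest, and without it the count was still 0. The lowest p belonged to Slc25a5 (an adenine nucleotide carrier of mitochondria, 0.37), Tut4 (-1.14), Khdc4 (-0.51), Rmnd5b (0.50) and Commd6 (0.45). In skeletal muscle the count was also 0 (0%, 1415 at an unadjusted p under 0.05), with Mybpc1 (myosin-binding protein C of slow fibres, 0.40), Atf4 (a stress-response transcription factor, -0.52), Ssh2 (0.27), Acyp2 (0.44) and Itgb5 (0.27) of lowest p.

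Adipose tissue gave a large count that depended on which of the mice of ranks 5 and 6 was called Ins2-rich. With the 5 mice against 5, limma called 638 probe sets higher (1.42%) and 375 lower (0.833%) in the adipose tissue of Ins2-rich mice. When the mouse of rank 6 (high triglyceride replicate 5), which is level with rank 5 in Ins2, took the place of high triglyceride replicate 8, 19 passed, 17 of them among the 1013. With 8 mice against 8 none passed (3722 at an unadjusted p under 0.05), with mouse number as a covariate 1 passed, and without high triglyceride replicate 8, leaving 4 against 5 mice, 596 passed. A slope over all 16 mice called 492, and slopes within the 8 high or the 8 low triglyceride mice called 0 each (1685 and 4860 at an unadjusted p under 0.05). The adipose values are therefore given as a description of these 10 mice, in which set and mouse number cannot be told apart. The Actb 3′ and 5′ control probe sets differed by 1.03 to 1.31 in adipose tissue of Ins2-rich mice and 1.25 to 1.44 in that of Ins2-poor mice, and the part of RNA quality was not tested. The middle mice had a mean between both sets on 92.0% of the 638 and 95.7% of the 375 probe sets, beside 31.0% of all. These probe sets were picked for a gap between the sets, which by itself makes a mean between them likely. The 31.0% is therefore no matched standard. Within the middle mice, however, the slope on Ins2 had the sign of the contrast on only 43.9% of the 638 and 56.8% of the 375, beside 58.1% of all, and on 4 of 12 macrophage and 8 of 19 inflammation genes.

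**Figure D3:**
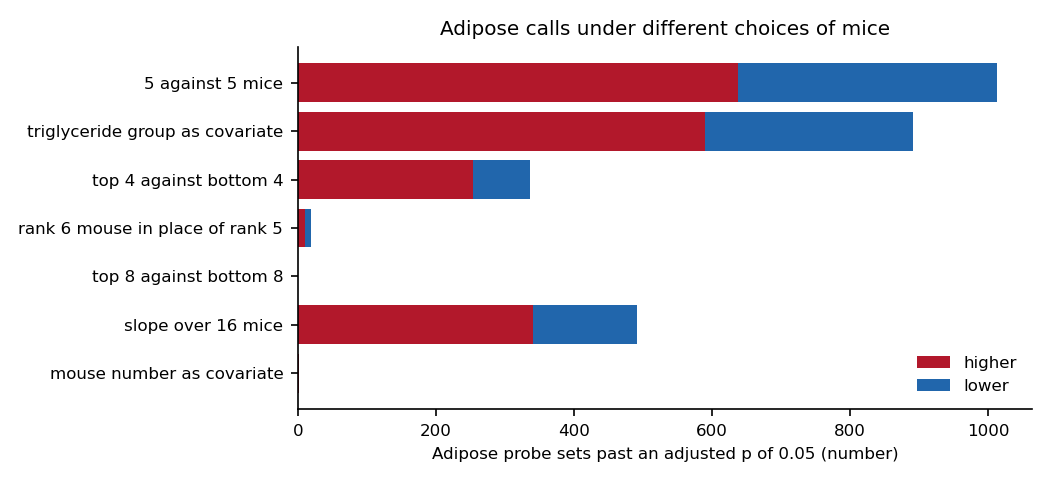
Number of adipose probe sets past an adjusted p of 0.05, higher (red) and lower (blue) in mice with Ins2-rich pancreas or with rising Ins2, under 7 choices of mice or model. The count is 1013 for the 5 mice against 5, 19 with the mouse of rank 6 in place of rank 5, and 0 for 8 against 8.

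Macrophage and inflammatory genes were among the genes called higher in adipose tissue. For each gene the probe set of highest mean over the adipose arrays was read, and by that reading 2.19% of 18192 genes were called higher and 1.26% lower. Of 12 macrophage genes 7 were called higher (Cd68, Adgre1, Cd14, Lyz2, Mrc1, Itgam and Tyrobp) and none lower, with a median of 1.12 against 0.00 over all genes. Cd68, a lysosomal membrane protein of macrophages, was 10.67, 9.87, 10.92, 10.91 and 10.96 in Ins2-rich mice, against 7.25, 7.45, 7.23, 7.53 and 7.95 in Ins2-poor mice (difference 3.18, SE 0.24, limma adjusted p = 0.00108). The middle mice had 7.51 to 9.01, and the rank 6 mouse had 7.70, within the range of the Ins2-poor mice.

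Of 19 inflammation genes 9 were called higher and none lower (median 2.18). Itgax (CD11c, an integrin of dendritic cells and of macrophages in obese fat) was 8.39, 7.77, 9.41, 8.64 and 8.70 in Ins2-rich mice, against 2.91, 4.40, 2.56, 3.92 and 3.95 in Ins2-poor mice (5.03, SE 0.43, limma adjusted p = 0.00152). Trem2, a lipid receptor of macrophages, differed by 4.80 (SE 0.33), the chemokine Ccl2 by 3.92 (SE 0.45), the elastase Mmp12 by 6.54 (SE 1.03) and the acute-phase gene Saa3 by 6.26 (SE 0.73). Timp1 (an inhibitor of matrix proteases, 3.05), Col4a1, Col4a2 and Col6a2 were the 4 of 18 matrix genes called higher, and Top2a, Ccnb2, Ccna2, Cdk1 and Ccnd2 were the 5 of 15 cell division genes. The lowest p-values over all genes belonged to Cstb (1.78), Ctsb (cathepsin B, a lysosomal protease, 1.95), Cd84 (a receptor of immune cells, 3.09), Tph2 and Tpcn2 (an ion channel of lysosomes, 2.63). Of 13 lymphocyte genes Ighm (the IgM heavy chain, 1.70) was called, while the list's median was -0.80.

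Tph2 had the largest difference of all called genes. It encodes tryptophan hydroxylase 2, the serotonin-synthesising enzyme of neurons, and was 10.93, 11.79, 11.04, 11.81 and 11.07 in Ins2-rich mice, against 4.42, 4.18, 2.34, 2.24 and 2.93 in Ins2-poor mice (8.10, SE 0.49, limma adjusted p = 0.000666). The middle mice ran from 2.36 to 9.99 and filled the gap between the sets. Tph2 also passed with the mouse of rank 6 in place of rank 5 (7.78, limma adjusted p = 0.0177). So did Gulp1, an adaptor for engulfing dying cells (-1.64, limma adjusted p = 0.0177). Cd68, Itgax, Trem2, Ccl2, Mmp12 and Saa3 did not pass with that mouse (limma adjusted p = 0.175, 0.0928, 0.182, 0.143, 0.155 and 0.0928). In the comparison of the 5 with the 5 Gulp1 differed by -1.71 (SE 0.11, limma adjusted p = 0.000666).

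Of 10 adipocyte genes 2 were called, both lower (Pparg, the regulator of adipocyte differentiation, -0.43, and Pck1, which makes glycerol for triglyceride, -1.28), where 1.26% of all genes were called lower, and the median of the list was 0.02. Adipoq (adiponectin) was 14.93 to 15.18 in Ins2-rich and 14.89 to 15.19 in Ins2-poor mice, with no difference beyond the spread. Of 17 genes of insulin signalling and glucose uptake 2 were called, both lower. Irs1 (insulin receptor substrate 1) was 8.82, 9.59, 9.35, 8.89 and 9.35 in Ins2-rich mice, against 10.61, 10.54, 10.27, 10.11 and 11.01 in Ins2-poor mice (-1.31, SE 0.21, limma adjusted p = 0.0189), and Insr (the insulin receptor) differed by -0.88 (SE 0.10). Slc2a4 (the glucose transporter GLUT4) differed by -0.79 (SE 0.25) and did not pass. The lipid droplet coat gene Plin2 (1.47, SE 0.10) and the fatty acid binding protein Fabp5 (0.93, SE 0.06) were called higher, as were Agpat2 and Mogat2 (acyltransferases of triglyceride synthesis) among 23 synthesis genes. With the mouse of rank 6 in place of rank 5, Pparg, Irs1, Insr, Plin2, Fabp5 and Mogat2 did not pass (limma adjusted p = 0.14, 0.115, 0.113, 0.107, 0.103 and 0.128). None of 16 fatty acid oxidation genes was called, and Lep (leptin, 1.30, SE 0.32) did not pass.

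Skeletal muscle markers in the adipose samples averaged lower in Ins2-rich mice. All 12 muscle genes of the list had negative differences, with a median of -3.79, but the sets overlapped for each. At an unadjusted p under 0.05 there were 8, where 1782 of 18192 genes were lower at that level, and none was called. Ckm (muscle creatine kinase) was 11.83, 7.65, 3.58, 6.48 and 11.77 in Ins2-rich mice, against 10.55, 12.24, 13.33, 12.63 and 13.08 in Ins2-poor mice, and the summed level of the list was 880 to 64952 in Ins2-rich and 29312 to 132864 in Ins2-poor mice. The part of muscle in the adipose values was not tested.

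**Figure D4:**
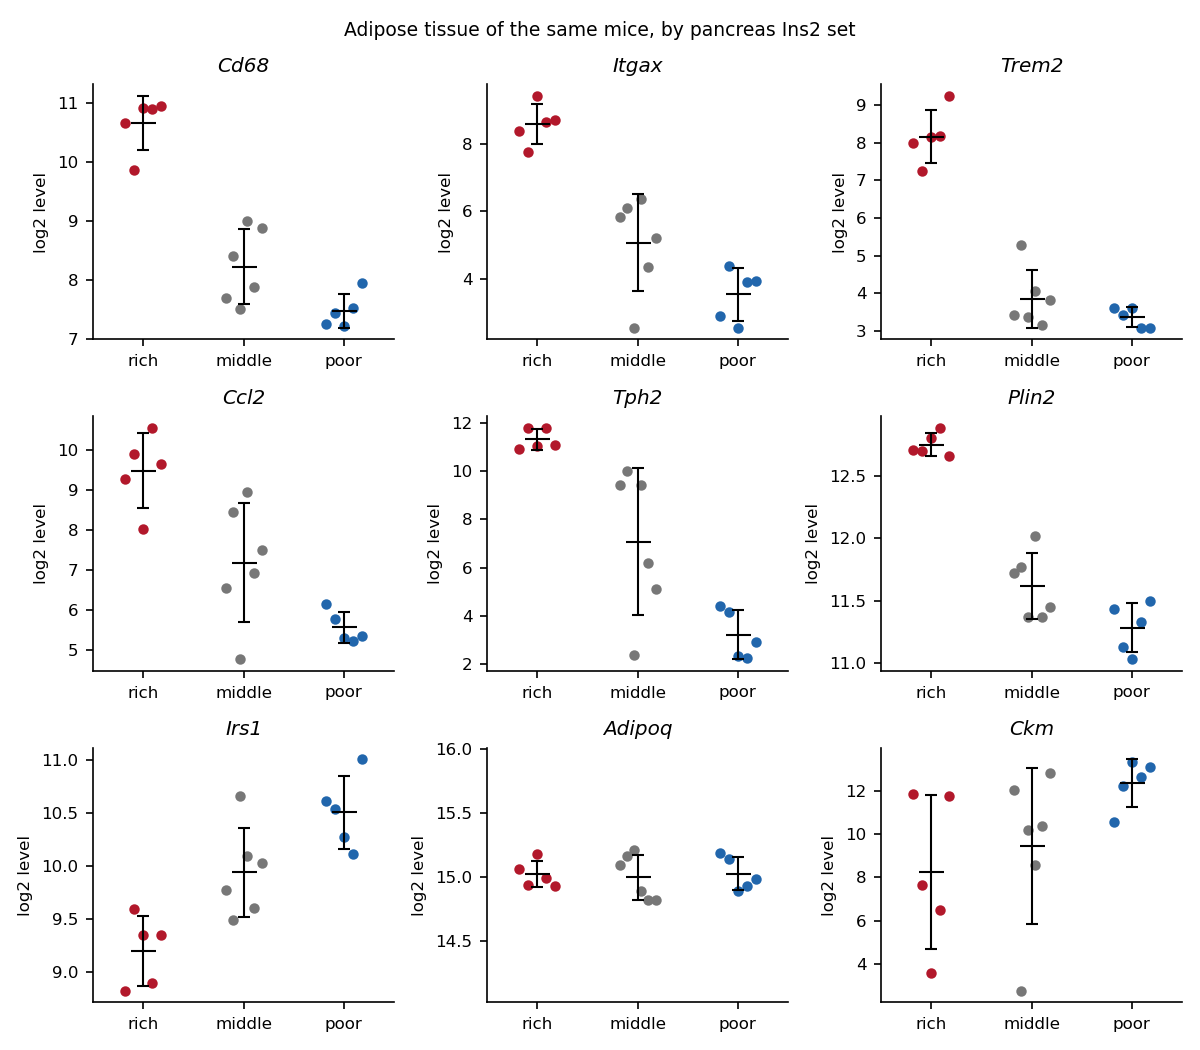
Log2 levels of 9 genes in adipose tissue, 1 point per mouse, for mice with Ins2-rich (n = 5), middle (n = 6) and Ins2-poor (n = 5) pancreas, with means and SD in black. Cd68, Itgax, Trem2, Ccl2, Tph2 and Plin2 are higher and Irs1 lower in all Ins2-rich than in all Ins2-poor mice, Adipoq overlaps at about 15 and the muscle gene Ckm is spread from 3.58 to 11.83 in Ins2-rich mice. Each panel has its own vertical axis.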

How the data were processed

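Expression was measured on Affymetrix Mouse Genome arrays, 1 per tissue and mouse. The values are log2 levels that the authors made with gcRMA (version not given in the sources used here) and deposited; of 45101 probe sets, 64 controls and Ins2 were left out of tests. Depth does not apply to arrays, and the number of arrays limits the precision. The deposited table of traits and genotypes was not used, because mice could not be matched to it. Probe sets were named from the platform annotation, where 34945 had 1 gene, 932 several and 9160 none. A gene is represented by its probe set of highest mean over the 16 pancreas arrays (adipose arrays for adipose tissue).

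Pancreas arrays were ranked by Ins2. Groups of 5 were compared with limma 3.58.1 (R 4.3.3, lmFit and eBayes) within each tissue, with Benjamini-Hochberg adjustment over all 45036 probe sets at 0.05. Correlations, exact permutation, Fisher's exact tests and 100000-resample permutations used Python 3.11.15, scipy 1.17.1, numpy 2.4.6 and pandas 2.3.3, and plots used matplotlib 3.10.9. Alternatives were quantile normalization, a mean log2 of 4 or more, other group sizes, a slope on Ins2, 3 groups in 1 fit, triglyceride group as a covariate, array weights, a mean-variance trend, ranking by Iapp and leaving out each array. Those with the array of rank 6, mouse number or a replicate block, and in adipose tissue the other group sizes, array weights and slopes by triglyceride group, were chosen after seeing the data.

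The members, the 26 lists of 341 genes (302 with a probe set) and the named genes were chosen with earlier results of these data known. Named genes were list members, the 10 of lowest p in each direction in pancreas, the 5 of lowest p in each other tissue, and the 10 most and least like Ins2; Gulp1 was named after its values were seen. Also 13 lists for adipose tissue were added after the number of adipose calls was known and before single values were seen. On simulated data for the pancreas comparison of 45036 probe sets, limma made 0 calls with no change. It called 49 of 100 probe sets changed by 1 and 91 of 100 changed by 2 on the log2 scale, with 6 false calls. Both sizes of change were added in 1 run, to probe sets averaging above 4. These shares do not hold for lower probe sets or for fewer changes. In the real comparison Chga (2.29), G6pc2 (2.35) and Scg2 (2.37) were not called.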

Additional observations from a re-analysis of the deposited data

Results flagged for a closer look

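In 72 sets of 5 or 6 values (24 named genes, 3 sets each), 2 had an array far from the others, where chance gives about 1 in 20. Adipose Cd68 of high triglyceride replicate 7, an Ins2-rich mouse, was 9.87, while the other Ins2-rich mice had 10.67 to 10.96. Adipose Lep of low triglyceride replicate 3, a middle mouse, was 10.82, while the other middle mice had 12.44 to 13.32.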

How the results depend on the processing

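In pancreas the count of 0 stayed 0 with quantile normalization, 4 arrays against 4, 8 against 8, array weights, a mean-variance trend, ranking by Iapp (the same arrays), each array left out in turn (lowest 0, highest 0), mouse number as a covariate, and the array of rank 6 in place of rank 5. It was 1 of 10279 (1422447_at) when probe sets averaging under log2 4 were dropped, 10 for the slope over 16 arrays, 7 for that slope with mouse number, 5 with 3 groups in 1 fit and 1, lower, with triglyceride group as a covariate. The cause was not tested. No paired analysis was possible because Ins2-rich and Ins2-poor arrays share 0 replicate numbers within a triglyceride group and numbers come from different mice, so the replicate block was added to the slopes only, where it left 0 of 10 calls in pancreas and 0 of 492 in adipose tissue. Liver gave 0 under every alternative. Muscle gave 1 for the slope and 1 with triglyceride group, and 0 otherwise. Ranking by Ins1 was not run.

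In adipose tissue 997 passed with quantile normalization, 2020 of 19594 without the low ones, 891 with triglyceride group, 1017 with array weights and 1013 ranked by Iapp. The slope over 16 mice gave 492 (413 of them among the 1013), with triglyceride group 238, within high 0 and within low 0 triglyceride mice. The mouse of rank 6 gave 19, 4 against 4 gave 337, 8 against 8 gave 0 and mouse number gave 1. Leaving out a mouse gave 479 to 792, with 479 without low triglyceride replicate 4, 533 without low replicate 7, 591 without low replicate 2, 596 without high replicate 8 and 612 without low replicate 1. The Adipoq difference of -0.01 was 0.11 with quantile normalization, 0.04 as a slope, 0.03 with the mouse of rank 6, 0.11 with 8 against 8, 0.20 with mouse number, and -0.05 to 0.04 with a mouse left out. Apart from Adipoq, the adipose genes examined kept their direction, and 107 of their 510 alternative values lost the call. Of 238 pancreas values 6 gained it, none turned. The high minus low triglyceride difference in Ins2 was 0.335 with quantile normalization and 0.664 for Iapp (exact permutation p = 0.151 and 0.0744). Many pancreas probe sets are at the lowest value, where a difference was not measurable.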

Other observations

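Granule genes also varied in adipose tissue of these mice, with high and low values in all 3 sets. Chga averaged 7.08 ± 2.63 in mice with Ins2-rich and 3.94 ± 3.41 in mice with Ins2-poor pancreas (SD, n = 5 each; limma adjusted p = 0.606), and Chgb 8.48 ± 3.52 and 4.26 ± 4.50 (limma adjusted p = 0.598). Middle mice had Chgb from 2.24 to 11.89. In the pancreas the immunoglobulin gene Igha was 2.54 to 4.29 on the Ins2-rich and 3.56 to 5.93 on the Ins2-poor arrays. Adipose Cela1, an elastase gene that acinar cells also make, was called higher in Ins2-rich mice (1.71, SE 0.29, limma adjusted p = 0.0254), while the list of acinar enzymes there had a median of -0.67.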
